A study of Homo sapiens with 8 samples.

Results

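Keratins of luminal and simple epithelium, KRT7, KRT8, KRT18, KRT19, KRT23, KRT80 and KRT81, were followed through a series of 4 related breast epithelial cell lines. These 7 genes were taken by name from the 56632 genes of the count table, and all 7 were among the 18431 genes with enough counts to be tested. M1 is MCF10A, a non-tumorigenic human mammary epithelial line. M2 (MCF10AT1k.cl2) was made from MCF10A by transfection of activated T24-HRAS and passage as a xenograft in mice, and M3 (MCF10Ca1h) and M4 (MCF10CA1a.cl1) were established from carcinomas that grew from M2 xenografts, M4 being the metastatic line of the series. Each line was therefore 1 isolate, M2 and M4 being named clones, and every line after M1 carries the HRAS transgene. All lines were grown as acini in Matrigel, a basement membrane gel, for 8 days in medium with 2% horse serum. The medium of M1 and M2 held EGF, a growth factor for these cells, at 10 ng/ml, and that of M3 and M4 held none, so the medium and the line cannot be told apart wherever M3 or M4 is compared with M1 or M2. Poly A+ RNA of 2 biological replicates a line was sequenced.

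Keratins are the intermediate filament proteins of epithelial cells, and a filament is built from obligate pairs of a type I (acidic) and a type II (basic) chain. Simple epithelia, and the luminal cells that line mammary ducts, are classically marked by type II KRT8 and KRT7 with type I KRT18 and KRT19, whereas basal and stratified cells use KRT5 with KRT14 or KRT15. Of the other members, KRT23 and KRT80 are epithelial keratins of type I and type II, and KRT81 is a type II keratin first known from hair.

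The type II genes of the set lie together with KRT18 on chromosome 12, and the other type I genes lie on chromosome 17 (GRCh37, the build of the counts, with GENCODE release 44 annotation lifted to it). KRT80 (ENSG00000167767) spans chr12:52562780-52585798 on the minus strand, KRT7 (ENSG00000135480) chr12:52626304-52645970 on the plus strand and KRT81 (ENSG00000205426) chr12:52679697-52685318 on the minus strand. No protein-coding gene lies between KRT80 and KRT7, and the annotated span of KRT86 overlaps both KRT7 and KRT81. KRT8 (ENSG00000170421, chr12:53290971-53343738, minus strand) and KRT18 (ENSG00000111057, chr12:53342655-53346690, plus strand) follow after 21 protein-coding genes, which are all keratins. The annotated spans of KRT8 and KRT18 overlap by 1084 bp, with 525 bp of exon in common on opposite strands. KRT23 (ENSG00000108244, chr17:39078952-39093898) and KRT19 (ENSG00000171345, chr17:39679869-39684560) are both on the minus strand of chromosome 17, with 13 other keratins between them.

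Of the members, the RefSeq promoter table used here (build GRCh38.p14) held KRT8. The sequence, 250 bases before to 50 bases after the start, is shown because KRT8 was the only member with an entry. It matched GRCh37 once, at chr12:53320204-53320503 on the minus strand, and it belongs to an upstream start, 21393 bp before the start of the canonical KRT8 transcript. The table also held KRT7-AS (ENSG00000257671), an antisense gene that the study pairs with KRT7. That window lies at chr12:52641183-52641482 on the minus strand, and its start is inside intron 7 of KRT7, 14205 bp after the start of the canonical KRT7 transcript. Capitals mark the only matches found on either strand for a TATA box (TATAAA), an AP-1 site (TGANTCA), a GC box (GGGCGG), an AP-2 site (GCCNNNGGC), an ETS site (CCGGAA) and a GRHL site (AACCGGTT).
KRT8 promoter: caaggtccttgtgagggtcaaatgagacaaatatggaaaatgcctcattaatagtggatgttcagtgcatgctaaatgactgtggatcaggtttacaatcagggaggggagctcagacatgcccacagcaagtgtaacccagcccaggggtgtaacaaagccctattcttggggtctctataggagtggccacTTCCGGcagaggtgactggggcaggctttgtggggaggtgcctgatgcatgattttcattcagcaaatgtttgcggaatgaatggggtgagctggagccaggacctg
KRT7-AS promoter: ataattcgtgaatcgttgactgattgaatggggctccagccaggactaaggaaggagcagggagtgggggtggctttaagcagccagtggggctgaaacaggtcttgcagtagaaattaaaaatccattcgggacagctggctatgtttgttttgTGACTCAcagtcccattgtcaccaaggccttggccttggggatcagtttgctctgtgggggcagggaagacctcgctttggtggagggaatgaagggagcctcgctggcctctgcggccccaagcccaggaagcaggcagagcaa
The KRT8 window held an ETS letter match that begins 57 bases before the start, and 17.2% of all 35116 promoters in the table hold this motif. In the KRT7-AS window, an AP-1 letter match began 95 bases before the start, as against 7.71% of all promoters with that motif. The shares of all promoters with the motifs that neither window held were 11.5% for the TATA box, 45.0% for the GC box, 23.2% for the AP-2 site and 0.134% for the GRHL site. GC content was 50.7% in the KRT8 window and 54.7% in the KRT7-AS window, and the median of all promoters was 58.7%. KRT7, KRT18, KRT19, KRT23, KRT80 and KRT81 had no entry.

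Library totals ran from 69669970 counts in M2 replicate 2 to 107350344 in M4 replicate 1. The replicates were not equally close. A chi-square test of the counts of each pair, whose value per degree of freedom is near 1 when a library is sampled again, gave 6.99 between the M2 libraries and 125 to 327 in the other lines, over genes with at least 50 counts. The spread that all comparisons share therefore drew on an M2 pair much closer than the rest, and with M2 replicate 1 or 2 left out, 2 and 0 genes were called in M2 against M1, in place of 622. A supplementary expression table of the study assigns the library labelled M1 replicate 2 to M2 and the library labelled M2 replicate 1 to M1. Under that assignment the chi-square per degree of freedom was 426 in M1 and 403 in M2. The sample labels are followed here. Some results of the members and some counts of calls are also given under the study table's assignment, where stated. All other values of M1 and M2 hold for the labels only. The M1 libraries also differed in keratins of stratified and differentiating epithelium. KRT10, singled out after its values were seen, was at 836 CPM (counts scaled to library size with TMM factors) in M1 replicate 1 and 96.9 CPM in replicate 2, KRT1 at 70.8 and 0.378 CPM, and KRT13 at 30.6 and 2.56 CPM. The epithelial markers EPCAM, CDH1, KRT5, KRT14 and TP63 were present in every library. HRAS itself was higher in M3 (log2 fold change 1.03, SE 0.15, edgeR adjusted p = 0.00380) and M4 (1.23, SE 0.15, adjusted p = 0.00119) than in M1 but differed by 0.10 (SE 0.15, adjusted p = 0.736) in M2.

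Across the series, KRT7, KRT8 and KRT18 were the abundant members and reached their highest levels in M4. KRT80 was low in M1, M2 and M3 and rose in M4, KRT23 was highest in M1 and fell in every later line, KRT19 was at a trace level throughout, and KRT81 differed more between the M1 libraries than between the lines. A gene was called when the edgeR quasi-likelihood test gave a Benjamini-Hochberg adjusted p under 0.05 over all genes tested and an absolute log2 fold change above 1. In M4 against M1, 5 of the 7 members were called, 4 higher (KRT7, KRT8, KRT18, KRT80) and 1 lower (KRT23), where 20.7% of all tested genes were called, 9.48% higher and 11.2% lower. Their median log2 fold change was 1.27, beside -0.02 over all tested genes. In M2 against M1 the call was KRT23 alone, lower (3.37% of all tested genes called, 2.26% higher and 1.11% lower). In M3 against M1, KRT18 was called higher and KRT23 lower (13.5% of all tested genes called, 8.02% higher and 5.51% lower). M3 against M2 gave 0 calls among the members by edgeR (4.15% of all tested genes called, 2.95% higher and 1.20% lower). DESeq2 called 1 member, KRT7, and called 1490 genes in all where edgeR called 765. M4 against M3 gave KRT80 higher and KRT23 lower (10.3% of all tested genes called, 3.99% higher and 6.30% lower), and M4 against M2 gave KRT7, KRT18 and KRT80 higher (13.9% of all tested genes called, 6.98% higher and 6.94% lower). The comparisons that share a line are not independent of each other.

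**Figure D1:**
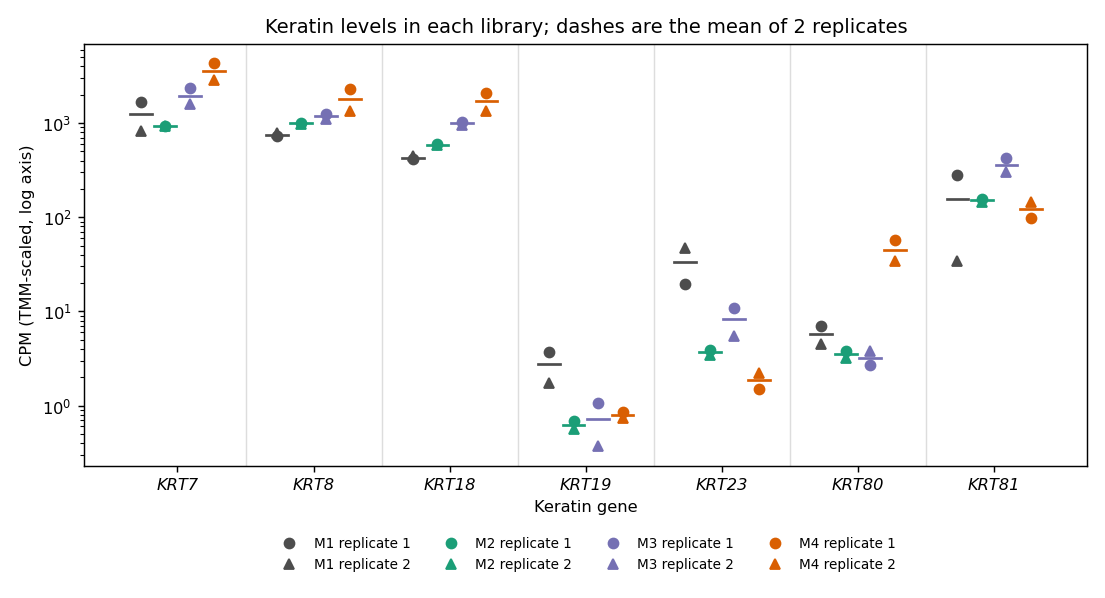
Level of each keratin in each library, in CPM scaled by TMM, on a log axis; circles are replicate 1, triangles replicate 2, and dashes the mean of 2 replicates. KRT7, KRT8 and KRT18 are highest in M4, KRT80 stands apart in M4 at 56.7 and 34.1 CPM, and the M1 points of KRT81 lie at 279 and 34.4 CPM.

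KRT7, a type II keratin of ducts and other simple epithelia, was at 1669 and 835 CPM in the M1 libraries, 940 and 921 CPM in M2, 2344 and 1585 CPM in M3, and 4335 and 2851 CPM in M4. Both M4 libraries lay above every other library. The M1 libraries straddled those of M2 and overlapped M3, so M1, M2 and M3 were not separated beyond their spread except that M3 was above M2 in both libraries. KRT7 was 2.87-fold higher in M4 than in M1 (log2 fold change 1.52, SE 0.37, edgeR adjusted p = 0.0174) and 3.86-fold higher than in M2 (log2 1.95, SE 0.37, adjusted p = 0.0100). Against M3 the log2 difference of 0.87 (SE 0.36, adjusted p = 0.135) did not pass. The size of the increase over M1 rested on which M1 library was kept. It was 2.12 without M1 replicate 1 (adjusted p = 0.00757) and 1.11 without M1 replicate 2 (adjusted p = 0.0656). It was 1.195 without M4 replicate 1 (adjusted p = 0.0975) and 1.46 under the study table's assignment (adjusted p = 0.0498), and with both doubly assigned libraries left out it was 1.11 (adjusted p = 0.127). A fit of only M1 and M4 gave 1.52 (adjusted p = 0.0516). M4 against M2 was 2.03 under that assignment (adjusted p = 0.0181), and its call was lost without either M2 library (adjusted p = 0.0835 and 0.0841) or without M4 replicate 1 (adjusted p = 0.0625).

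KRT8, the basic chain of the pair found in nearly all simple epithelia, was at 723 and 788 CPM in M1, 1010 and 987 CPM in M2, 1262 and 1094 CPM in M3, and 2281 and 1351 CPM in M4. No 2 lines overlapped and the order was M1, M2, M3, M4, though the M4 replicates were farther apart from each other than M3 was from M1. The increase of M4 over M1 was 2.40-fold (log2 1.27, SE 0.25, edgeR adjusted p = 0.00796). M4 against M2 (log2 0.86, SE 0.25, adjusted p = 0.0422) passed the p threshold but not the fold threshold, and the steps from M1 to M2 (0.40), M2 to M3 (0.24) and M3 to M4 (0.63) did not pass. Without M4 replicate 1 the log2 difference of M4 from M1 was 0.85 (adjusted p = 0.0353), under the fold threshold. Under the study table's assignment it was 1.07 (adjusted p = 0.0772), and with both doubly assigned libraries left out it was 1.33 (adjusted p = 0.0681).

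KRT18, the acidic partner of KRT8, was at 414 and 445 CPM in M1, 597 and 579 CPM in M2, 1023 and 965 CPM in M3, and 2089 and 1340 CPM in M4. Its libraries also kept the order M1, M2, M3, M4 with no overlap, and outside M4 the replicates of a line were 0.05 to 0.10 apart on the log2 scale. KRT18 was 2.32-fold higher in M3 than in M1 (log2 1.21, SE 0.22, edgeR adjusted p = 0.00875), 3.995-fold higher in M4 than in M1 (log2 2.00, SE 0.22, adjusted p = 0.000869) and 2.92-fold higher in M4 than in M2 (log2 1.54, SE 0.22, adjusted p = 0.00361). M4 against M3 (log2 0.79, SE 0.22, adjusted p = 0.0457) stayed under the fold threshold, and M3 against M2 (0.76, SE 0.22, adjusted p = 0.0908) and M2 against M1 (0.45, SE 0.22, adjusted p = 0.257) did not pass. Under the study table's assignment M4 against M1 was 1.76 (adjusted p = 0.0175) and M4 against M2 was 1.74 (adjusted p = 0.0158), whereas M3 against M1 was 0.97 (adjusted p = 0.163) and no longer called. With both doubly assigned libraries left out, M3 against M1 was 1.27 (adjusted p = 0.0750).

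KRT19, a type I keratin of luminal mammary cells, was at 3.72 and 1.73 CPM in M1, 0.687 and 0.569 CPM in M2, 1.06 and 0.367 CPM in M3, and 0.855 and 0.743 CPM in M4. These levels stood for 308 counts at most and 32 at least. Both M1 libraries were above all the others. M3 overlapped M2 and M4. Both M4 libraries were above those of M2, by a log2 difference that did not pass (0.35, SE 0.58, edgeR adjusted p = 0.699). The log2 differences from M1 were -2.11 in M2 (SE 0.59, edgeR adjusted p = 0.0866), -1.93 in M3 (SE 0.59, adjusted p = 0.0527) and -1.77 in M4 (SE 0.58, adjusted p = 0.0526), and none was called. The M4 difference passed the threshold under 7 of the 19 alternatives, leaving out M1 replicate 2 (-2.22, adjusted p = 0.0411) or either M3 library among them. With DESeq2 the M4 difference of -1.75 had an adjusted p of 0.0123, and under the study table's assignment it was -1.46 (adjusted p = 0.347). KRT19 was thus at a trace level in acini of all 4 lines, including those in which KRT7, KRT8 and KRT18 were abundant.

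KRT23, a type I keratin, was at 19.7 and 47.1 CPM in M1, 3.93 and 3.43 CPM in M2, 10.9 and 5.53 CPM in M3, and 1.49 and 2.22 CPM in M4. The lines fell in the order M1, M3, M2, M4 with no overlap. KRT23 was 9.07-fold lower in M2 than in M1 (log2 -3.18, SE 0.50, edgeR adjusted p = 0.0154), 4.07-fold lower in M3 (log2 -2.02, SE 0.47, adjusted p = 0.0219) and 18.1-fold lower in M4 (log2 -4.18, SE 0.52, adjusted p = 0.00139). It was also 4.44-fold lower in M4 than in M3 (log2 -2.15, SE 0.48, adjusted p = 0.0241). M4 against M2 (-0.99, SE 0.47, adjusted p = 0.168) and M3 against M2 (1.16, SE 0.47, adjusted p = 0.196) did not pass. The M2 call was lost without either M2 library (adjusted p = 0.154 and 0.173) and the M3 call without M1 replicate 2 (adjusted p = 0.0913) or M3 replicate 2 (adjusted p = 0.106). The difference of M4 from M3 kept an adjusted p under 0.05 when an M1 library or M3 replicate 2 was left out and lost it without any of the other 5 libraries (adjusted p from 0.0551 to 0.144). Under the study table's assignment the differences from M1 were 1.10 in M2 (adjusted p = 1.00), -0.53 in M3 (adjusted p = 0.843) and -2.68 in M4 (adjusted p = 0.191), and M4 against M3, which holds neither library and shares only their spread, was -2.15 (adjusted p = 0.305). With both libraries left out, M4 against M1 was -3.41 (adjusted p = 0.00597) and M4 against M3 was -2.15 (adjusted p = 0.0219), whereas M2 against M1 (-2.52, adjusted p = 0.148) and M3 against M1 (-1.26, adjusted p = 0.147) were not called.

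KRT80, a type II epithelial keratin, was at 7.05 and 4.54 CPM in M1, 3.84 and 3.23 CPM in M2, 2.67 and 3.79 CPM in M3, and 56.7 and 34.1 CPM in M4. M4 stood apart from the other lines. KRT80 was 7.83-fold higher in M4 than in M1 (log2 2.97, SE 0.34, edgeR adjusted p = 0.000955), 12.8-fold higher than in M2 (log2 3.68, SE 0.35, adjusted p = 0.000906) and 14.05-fold higher than in M3 (log2 3.81, SE 0.36, adjusted p = 0.00159), so it differed between the carcinoma lines, which were both grown without EGF. In M2 and M3 the libraries were below those of M1, with log2 differences of -0.71 (SE 0.33, adjusted p = 0.237) and -0.84 (SE 0.33, adjusted p = 0.104) that did not pass. Under the study table's assignment, M4 was 3.06 above M1 (adjusted p = 0.00847) and 3.55 above M2 (adjusted p = 0.00537) on the log2 scale.

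KRT81, a type II keratin of the hair group, was at 279 and 34.4 CPM in M1, 156 and 146 CPM in M2, 423 and 301 CPM in M3, and 97.2 and 147 CPM in M4. The M1 replicates were 3.02 apart on the log2 scale and enclosed both M2 and M4. M3 was above every other library, but M3 against M1 (log2 1.21, SE 0.78, edgeR adjusted p = 0.304), M3 against M2 (1.26, SE 0.78, adjusted p = 0.395) and M4 against M3 (-1.57, SE 0.79, adjusted p = 0.209) were not called. In edgeR fits of only the lines compared, M3 against M2 (1.26, adjusted p = 0.0348) and M4 against M3 (-1.55, adjusted p = 0.0196) were called. M3 against M1 (1.21, adjusted p = 0.4905) was not. The comparison of M4 with M1 (-0.36, SE 0.77, adjusted p = 0.753) took its sign from the M1 library. It was 1.84 without M1 replicate 1 (adjusted p = 0.00745) and -1.19 without M1 replicate 2 (adjusted p = 0.0279). Without M1 replicate 1, M4 against M3 was -1.55 (adjusted p = 0.00781), and without M1 replicate 2 it was -1.57 (adjusted p = 0.00805). M3 against M2 passed in the same fits, at 1.27 (adjusted p = 0.0249) and 1.26 (adjusted p = 0.0278), and M3 against M1 was 3.40 without M1 replicate 1 (adjusted p = 0.00275) and 0.38 without M1 replicate 2 (adjusted p = 0.428). M1 replicate 1, the library high in KRT81, is the one high in KRT1, KRT10 and KRT13, and their part in these differences was not tested.

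**Figure D2:**
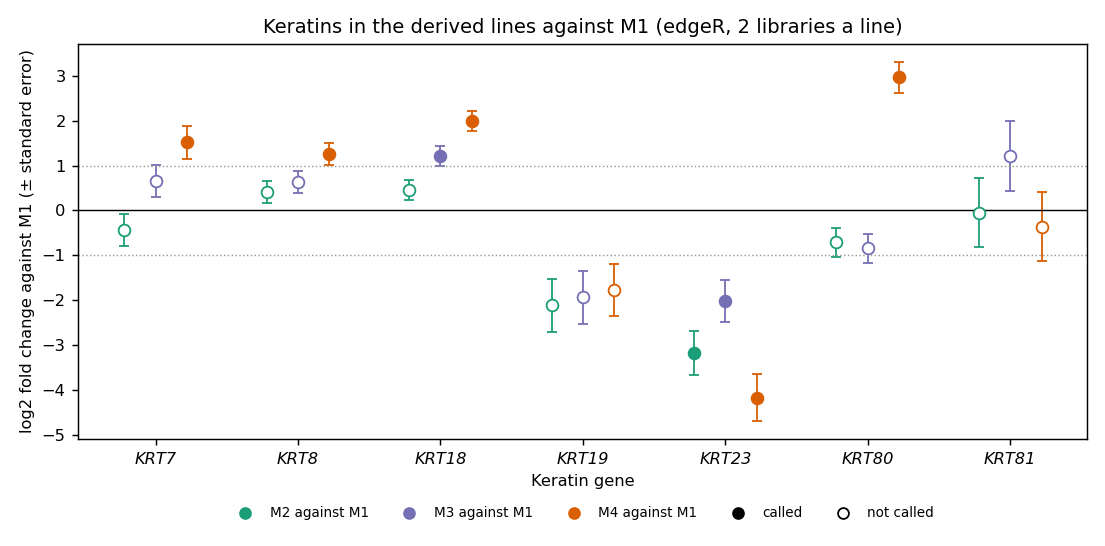
Log2 fold change of each keratin in M2, M3 and M4 against M1 with its standard error; filled points are called (edgeR adjusted p under 0.05 and absolute log2 fold change above 1, the dotted lines) and open points are not. In M4, KRT7, KRT8, KRT18 and KRT80 are filled above 0 and KRT23 is filled below 0 at -4.18, while KRT81 is open with a standard error of 0.77.

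Calls that held under all 19 alternatives of processing or sample choice were the higher KRT18 and KRT80 in M4 against M1, the higher KRT18 and KRT80 in M4 against M2, and the higher KRT80 in M4 against M3. KRT18 in M4 against M1 ranged from 1.65 to 2.30 on the log2 scale, and KRT80 from 2.56 to 3.34.

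**Figure D3:**
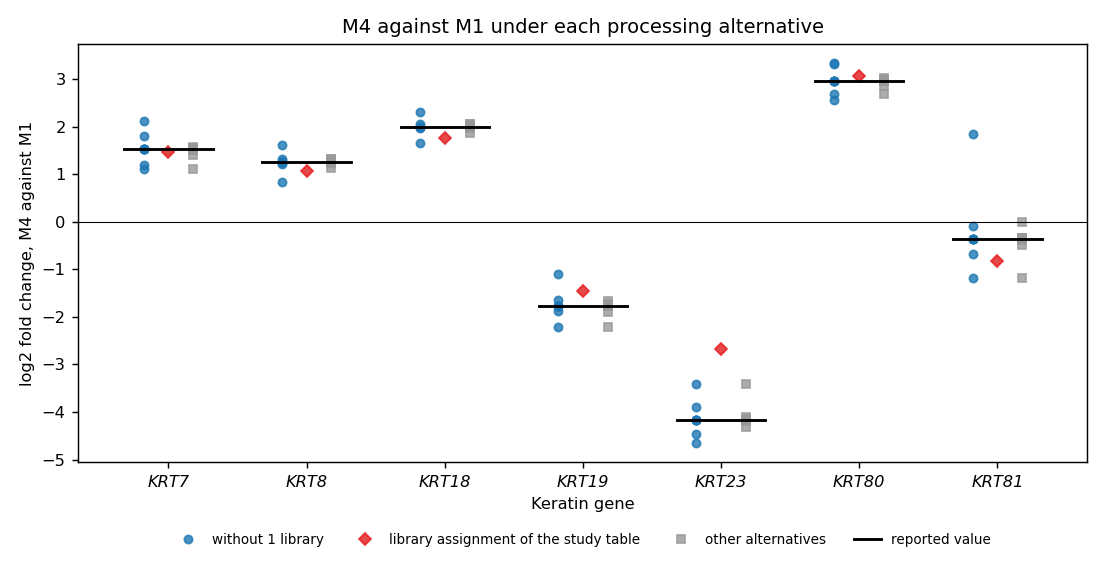
Log2 fold change of each keratin in M4 against M1 as reported (black dash) and under each alternative; circles leave out a library, diamonds follow the study table's assignment of 2 libraries, and squares are other alternatives. KRT18 and KRT80 stay far above 0, KRT23 moves from -4.18 to -2.68 under the study table's assignment, and KRT81 falls on both sides of 0.

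Levels of different keratins were then compared as CPM per kb of canonical transcript, as a description without a test. In M1, KRT7 averaged 770 ± 363 (SD, n = 2), KRT8 424 ± 25.8, KRT18 304 ± 15.5 and KRT81 81.2 ± 89.7 CPM per kb, above KRT23 at 15.1 ± 8.75, KRT19 at 1.96 ± 1.01 and KRT80 at 1.495 ± 0.458. In M4, KRT7 averaged 2211 ± 646, KRT18 1214 ± 375, KRT8 1018 ± 369, KRT81 63.3 ± 18.2, KRT80 11.7 ± 4.12, KRT23 0.839 ± 0.233 and KRT19 0.575 ± 0.0568 CPM per kb. KRT18 made up 93.3% to 99.9% of the type I members' CPM per kb in every library, and KRT7 made up 47.2% to 67.6% of the type II members'. KRT8 exceeded KRT18 per kb in M1 (ratio 1.38 and 1.40) and M2 (1.34 and 1.35) and was below it in M3 (0.977 and 0.898) and M4 (0.865 and 0.799). With the union of all annotated exons as length, an alternative chosen after the data were seen, the ratio was 0.780 and 0.791 in M1 and 0.487 and 0.450 in M4. A change of length multiplies the ratio alike in every library, so which of the genes was higher in M1 and M2 rests on the length chosen. KRT8 and KRT18 overlap on opposite strands, and whether reads were counted by strand is not given in the sources used here.

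The 7 members together made up 16.2% and 15.5% of all keratin CPM per kb in the M1 libraries, 14.05% and 13.8% for M2, 23.4% and 19.5% for M3, and 43.5% and 37.3% for M4. M4 stood apart from the other lines, whereas M1 and M2 were close. The summed CPM per kb of all keratins was 9500 to 12614 in M4 and 8475 to 11590 in M1, so the share differed while the totals overlapped. Basal keratins made up most of the remainder. KRT5, the basal type II keratin, was at 8414 and 6203 CPM in M1, 9179 and 9190 CPM in M2, 7056 and 5365 CPM in M3, and 3268 and 2837 CPM in M4. KRT15, a type I keratin of basal cells, was at 6412 and 5050 CPM in M1 and 3088 and 2637 in M4, and KRT17, a type I keratin of basal and stressed epithelium, at 1140 and 1656 CPM in M1 and 3312 and 2117 in M4. KRT5 (log2 -1.26, SE 0.24, edgeR adjusted p = 0.00665) and KRT15 (-1.002, SE 0.24, adjusted p = 0.0182) were called lower in M4 than in M1, the latter at the fold threshold. KRT17 was 0.96 above M1 (SE 0.27, adjusted p = 0.0309), under the fold threshold. KRT6B, a type II keratin of stratified and activated epithelium, was named after its values were seen and rose from 196 and 343 CPM in M1 to 2434 and 2469 CPM in M4 (log2 3.19, SE 0.27, adjusted p = 0.000341). It was at 849 CPM in both M2 libraries and at 2616 and 2732 CPM in M3, and was also called higher than M1 in M2 and M3.

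**Figure D4:**
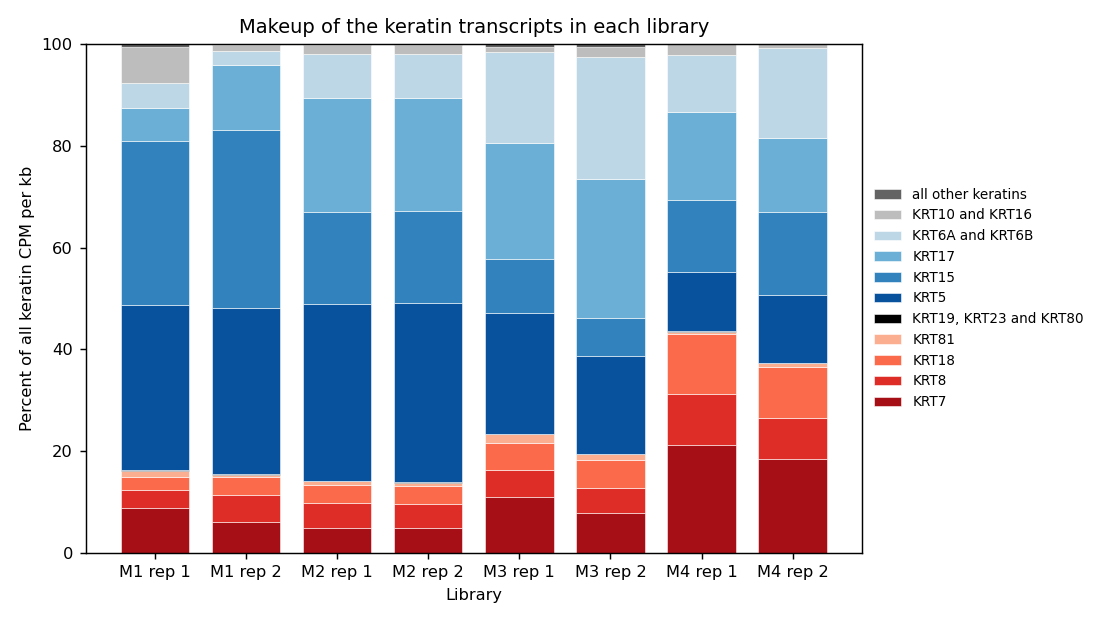
Makeup of the keratin transcripts in each library as percent of all keratin CPM per kb of canonical transcript; red shades are KRT7, KRT8, KRT18 and KRT81, blue shades the main basal and stratified keratins. The members take 43.5% and 37.3% in M4 and 13.8% to 23.4% in the other lines, and KRT5 takes 11.6% and 13.4% in M4 against 32.4% and 32.7% in M1.

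Among the 48 keratins outside the set, 19 were tested, and in M4 against M1 4 were higher and 8 lower, with a median log2 fold change of -0.63. Of all tested genes, 9.48% were called higher and 11.2% lower. The largest higher calls were of keratins with few counts, KRT34 (0.0483 and 0 CPM in M1, 2.25 and 1.99 CPM in M4) and KRT75 (0.145 and 0.171 CPM in M1, 2.20 and 1.42 CPM in M4). KRT1, a keratin of differentiating epidermis, and KRT222 were the largest lower calls and had no count in M4. KRT222 was at 0.167 and 0.2196 CPM in M1. Under the study table's assignment 6 keratins outside the set were called in place of 12, while the genes called in all went from 3821 to 1559.

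Of 17 proteins tested that bind or anchor keratin filaments, 2 rose and 1 fell in M4 against M1, beside 20.7% of all tested genes called, with a median log2 fold change of 0.30. PLEC, the plakin that ties keratins to hemidesmosomes, went from 388 and 303 CPM in M1 to 1224 and 1244 CPM in M4 (log2 1.84, SE 0.32, edgeR adjusted p = 0.00510). SFN, a 14-3-3 protein that binds keratins, went from 506 and 445 to 1420 and 1395 CPM (log2 1.56, SE 0.15, adjusted p = 0.000515). PKP1, a desmosomal plakophilin, fell from 1.52 and 0.622 to 0.273 and 0.141 CPM (log2 -2.35, SE 0.59, adjusted p = 0.0198).

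Luminal and basal epithelial markers other than the members each went both ways. Of 14 luminal markers tested, 6 were higher and 3 lower in M4 than in M1, with a median log2 fold change of 0.66. Over all tested genes the shares were 9.48% higher and 11.2% lower. CLDN4, a tight junction claudin, rose from 49.5 and 46.4 to 379 and 271 CPM (log2 2.76, SE 0.23, edgeR adjusted p = 0.000298), and CLDN3, another claudin, was called higher from 0 CPM in both M1 libraries to 0.185 and 0.154 CPM. SPDEF, a transcription factor of luminal and secretory cells, fell from 2.61 and 3.84 to 0.0441 and 0.0641 CPM, and MUC1, the apical mucin, fell from 56.5 and 32.2 to 1.78 and 0.999 CPM (log2 -4.98, SE 0.37, adjusted p = 0.000220). Of 16 basal markers tested, 4 were higher and 6 lower, beside the same shares of all tested genes, with a median log2 fold change of 0.10. KRT5, KRT14 and KRT15, which are 3 of the 6, are also counted among the keratins above. The higher ones included LAMA3, a laminin chain (log2 2.83, SE 0.24, adjusted p = 0.000304). The lower ones included MME, a surface peptidase of myoepithelial cells (-6.01, SE 0.79, adjusted p = 0.00203), and NGFR, a neurotrophin receptor (-3.57, SE 0.76, adjusted p = 0.0122).

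Of 20 transcription factors known to act in epithelial cells, 4 were higher and 4 lower in M4 against M1, with a median log2 fold change of 0.13. Of all tested genes, 9.48% were called higher and 11.2% lower. GATA3, 1 of the lower, is also counted among the luminal markers. FOSL1, an AP-1 subunit, rose from 10.6 and 15.4 to 167 and 158 CPM (log2 3.65, SE 0.20, edgeR adjusted p = 9.62e-05), and ETS1, an ETS family factor, rose from 15.8 and 26.9 to 134 and 130 CPM (log2 2.63, SE 0.27, adjusted p = 0.000588). GATA3, a luminal transcription factor, fell from 74.7 and 98.4 to 14.7 and 16.5 CPM (log2 -2.47, SE 0.18, adjusted p = 0.000220), and EHF, an epithelial ETS factor, fell from 80.8 and 144 to 36.8 and 26.3 CPM (log2 -1.83, SE 0.29, adjusted p = 0.00327).

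Markers of other cell types were low in M4 but not in every library of the other lines. FABP4, an adipocyte marker, was at 94.98 CPM in M1 replicate 1 and 4.294 CPM in M1 replicate 2. In M1 replicate 1 it was above the epithelial marker EPCAM (49.93 CPM) and below CDH1 (185.3 CPM). Summed over a list, markers of fibroblasts were at 9.36 to 60.3 CPM in M1 and 6.47 to 7.61 CPM in M4 (8 genes, 5 tested), those of endothelium at 2.45 to 3.14 and 0.128 to 0.176 CPM (3 genes in the table, 2 tested), those of leukocytes at 19.1 to 28.8 and 2.42 to 2.99 CPM (5 genes, 2 tested), and those of adipocytes at 4.84 to 95.9 and 0.212 to 0.308 CPM (4 genes, 2 tested). The fibroblast sum was highest in M2, at 72.7 to 74.8 CPM, of which DCN, a matrix proteoglycan, made 58.6 to 60.2 CPM, and in M3 it was 16.2 to 17.8 CPM. THY1, a surface marker of fibroblasts, was called higher in M3 than in M1, at 6.07 and 1.76 CPM against 0.0121 and 0 CPM. In M4 against M1 none of these genes was called higher, and 2 fibroblast, 1 endothelial, 1 leukocyte and 2 adipocyte markers were called lower. Of all tested genes, 9.48% were called higher and 11.2% lower. In bulk RNA, fewer cells with a keratin and less of its RNA per cell cannot be told apart.

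KRT8 and KRT18 had the most similar patterns among the members. The root mean square difference between their log2 CPM, each centred on its mean over the 8 libraries, was 0.33, followed by KRT7 and KRT18 (0.42) and KRT7 and KRT8 (0.50). The next pair, KRT7 and KRT80, was at 1.08. Among 14081 other protein-coding genes, those closest to each member by this measure were BCL2L1 (0.18) and PROSER2 (0.19) for KRT7, ALKBH5 (0.12) and ZNRD2 (0.13) for KRT8, GADD45A (0.18) and ATOSB (0.18) for KRT18, CYRIA (0.27) and RIPK4 (0.36) for KRT19, SPINT3 (0.54) and LRRC75B (0.58) for KRT23, NR4A3 (0.28) and TRIM63 (0.34) for KRT80, and KRT86 (0.34) and ADIRF (0.38) for KRT81. SPINT3, NR4A3 and TRIM63 had few counts, at or under 1.22 CPM in every library. With a prior count of 0.5 in place of 2, 1 of the 2 neighbours was another gene for KRT19, KRT23 and KRT80. KRT86 is a near copy of KRT81, and the likeness of KRT81 to it can include shared reads.

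Counts assigned to copies were small beside the members' own counts. The 49 KRT8 pseudogenes held 1.08% to 1.45% of the KRT8 count, with KRT8P3 the largest, the 66 KRT18 pseudogenes 0.121% to 0.310% of the KRT18 count, with KRT18P15 the largest, and the 5 KRT19 pseudogenes none. KRT83, KRT85 and KRT86 together held 1.34% to 2.55% of the KRT81 count, and KRT86 had the most. How reads were split between near-identical copies was decided in the deposited counts and cannot be redone from them. The percentages therefore do not show how many reads could belong to either gene.

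KRT7-AS, the antisense gene inside KRT7, shares 282 bp of exon with it on the opposite strand. Its expected counts were 959 and 660 for M1, 314 and 243 for M2, 1033 and 702 for M3, and 2963 and 925 for M4. The M2 libraries were the lowest and M4 replicate 1 was the highest, as it was for KRT7. KRT7-AS was higher in M4 than in M2 (log2 2.54, SE 0.42, edgeR adjusted p = 0.00622), whereas M4 against M1 (0.95, SE 0.40, adjusted p = 0.110) did not pass. Without counting by strand, reads of KRT7-AS and of the overlapping KRT7 exons cannot be told apart. A lncRNA without a symbol (ENSG00000234477) shares 186 bp of exon with KRT23 on the opposite strand and had 52 and 11.0 counts in M1 and 0 to 19 in the other lines.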

How the data were processed

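Poly A+ RNA from acini of M1, M2, M3 and M4 was sequenced as paired-end reads in 2 biological replicates a line. Per the labels and the study's methods, the authors used Trimmomatic for adapter and quality trimming, STAR for alignment to hg19 (GRCh37) and RSEM for expected counts per gene of GENCODE v19. Versions, and whether strand was used, are not given in the sources used here. The deposited expected counts are not normalized and not all whole, and they were rounded. Reads of near-identical genes were shared out at that step. Deposited names were matched by gene ID to GENCODE release 44 on GRCh37 (53454 of 56632 IDs), which also gave lengths.

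Counts were scaled by TMM, filtered with filterByExpr and fitted in edgeR 4.0.16 (R 4.3.3) with a coefficient for each line over all 8 libraries. Contrasts were tested by the robust quasi-likelihood F test, and p-values were adjusted by Benjamini-Hochberg over 18431 genes. Each SE follows from the F value and the fold change. With 2 replicates a line, intervals are wide. The p-values rest on a spread between libraries that is pooled over lines, and the M2 pair was much closer than the rest. The 7 keratins and the gene lists were chosen with earlier results of these data known, so their agreement with those results is not independent. Genes were named by fixed rules: all members, the 2 nearest protein-coding genes in pattern, up to 2 genes of a list with the largest higher and lower change among those called in M4 against M1, the 3 other keratins with the highest mean CPM, and the copy with the most counts. The values of 1 list gene named by these rules are not reported here. EPPK1, CD24 and 1 endothelial marker of the lists were not analysed here.

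Whether replicate numbers pair the lines was checked by correlating replicate differences between lines across genes. Alternatives were other scalings, filters and thresholds, DESeq2 1.42.0, a replicate block, a fit of the compared lines only, the study table's assignment of 2 libraries, and leaving out libraries. Python 3.11.15, pandas 2.3.3, numpy 2.4.6 and matplotlib 3.10.9 did the rest.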

Additional observations from a re-analysis of the deposited data

Results flagged for a closer look

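For 4 members the difference from M1 was called unlike in 2 of the derived lines, by the direct test of those lines. Of all tested genes, 10.3% were called in M4 against M3 and 13.9% in M4 against M2. KRT80 in M4 was 3.81 above M3 and 3.68 above M2 on the log2 scale, KRT7 and KRT18 in M4 were 1.95 and 1.54 above M2, and KRT23 in M4 was at -2.15 relative to M3. The edgeR adjusted p-values stand with each gene in the report. The call of KRT7 in M4 against M2 was lost under 3 of the 19 alternatives, and that of KRT23 in M4 against M3 under 6. The differences of M2, M3 and M4 from M1 share the same M1 libraries. In the direct tests M1 is not a side of the comparison and enters through the shared spread.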

How the results depend on the processing

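The counts of members called that moved by more than 1.5 times were those of M2 against M1, with 1 call as reported, 2 with DESeq2 and without a filter on low counts, and 0 under the study table's library assignment or with both doubly assigned libraries left out. For M3 against M1, with 2 calls as reported, there were 4 without the filter, 1 in a fit of only the compared lines, and 0 under both changes of the doubly assigned libraries. M4 against M1, with 5 as reported, gave 3 under both of these changes, and M4 against M3 gave 1 under the study table's assignment. M3 against M2 gave 1 with DESeq2, 3 without the filter and 1 in a fit of only the compared lines. In M4 against M1, keratin-binding proteins had 5 calls with upper-quartile scaling and with no minimum fold change. The study table's assignment gave 6 calls for other keratins, 4 for basal markers and 5 for transcription factors. Over all genes, the study table's assignment gave 0 calls in M2 against M1 in place of 622, 219 in M3 against M1 in place of 2494, 1559 in M4 against M1 in place of 3821 and 830 in M4 against M3 in place of 1897. With both libraries left out, 29, 1625 and 2425 genes were called in M2, M3 and M4 against M1. With DESeq2, 1326 genes were called in M2 against M1, and 1490 in place of 765 in M3 against M2. Without the filter these were 1788 and 1880, and 3457 in M3 against M1. A fit of only the compared lines called 1659 genes in M3 against M1 and 945 in M3 against M2. The cause of these moves was not tested. Upper-quartile scaling moved the median of all genes in M4 against M1 to -0.15.

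Leaving out each library in turn gave 0 to 2 members called in M2 against M1, 1 to 3 in M3 against M1, 3 to 6 in M4 against M1, 0 to 1 in M3 against M2, 1 to 3 in M4 against M3 and 2 to 4 in M4 against M2. In M4 against M1 it gave 7 to 14 other keratins, 2 to 5 keratin-binding proteins, 6 to 10 luminal markers, 7 to 11 basal markers and 6 to 10 transcription factors. With 1 library left in a line, its spread was taken from the other lines. The number of all tested genes called also moved between these fits, so the ranges do not describe the keratins and the listed genes alone. Over all alternatives, 721 log2 values of members kept their direction and their side of the threshold, 36 newly passed it, 27 no longer passed and 14 changed sign.

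Replicate differences of 2 lines correlated at -0.02 to 0.12 across genes, so the numbers were not taken as pairs. With a replicate block, KRT81 in M2 against M1 was 0.22 in place of -0.05 KRT19 was called lower in M3 and M4 against M1 (edgeR adjusted p = 0.0299 and 0.0378), and the block ended no call of a member. Other log2 values that changed sign, none called as reported apart from KRT23 in M2 against M1, were as follows. Under the study table's assignment, KRT23 was 1.10 in M2 against M1 and -1.62 in M3 against M2, KRT19 was -0.69 in M3 against M2 and -0.53 in M4 against M2, and KRT81 was 0.44 in M4 against M2. Without M1 replicate 1, KRT7 was 0.16 and KRT81 2.13 in M2 against M1, and KRT81 was 1.84 in M4 against M1; without M1 replicate 2 these were -0.84, -0.88 and -1.19. KRT80 in M3 against M2 was 0.0025 with both doubly assigned libraries left out, 0.0033 without M2 replicate 1 and 0.10 without M3 replicate 1. KRT19 in M3 against M2 was -0.77 without M3 replicate 1 and 0.75 without M3 replicate 2, and in M4 against M3 it was 1.11 and -0.41.

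The members' share of keratin CPM per kb was 15.9% ± 0.545 (SD, n = 2) for M1, 13.9% ± 0.147 for M2, 21.4% ± 2.77 for M3 and 40.4% ± 4.38 for M4. With exon union lengths, chosen after seeing the data, it was 14.2%, 11.1%, 16.4% and 32.4%, and under the study table's assignment it was 15.1% in M1 and 14.7% in M2. Depth limits mainly KRT19, with 32 to 308 counts a library. The SE of 0.77 to 0.79 for KRT81 in the fit of all lines limits statements on it. Whether its M3 level was called apart from M2 and M4 depended on the fit.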
